A study of Mus musculus with 10 samples.

Results

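The motile cilia genes described here are 41 genes that build, move or switch on the beating cilium, measured in the lungs of 10 mice. A gene was found through the platform annotation, using probe sets annotated to a single gene symbol, and where several were left the brightest on average stood for it. Of the 41 genes, 38 had such a probe set, and 35 passed a filter on dim signal and were tested, among 11333 genes tested and 18194 genes with any probe set. Spag17, Spef2 and Dnah5 were too dim, and Dnah3, Cfap44 and Sntn had no probe set under this rule. The members were not chosen by their values, but the list and its division by role were drawn up with earlier results of these data known.

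The study asked how arsenic in drinking water changes gene expression in the lung. Adult female C57BL/6 mice, 8 weeks old at the start, drank water with 50 ppm arsenic for 12 weeks (arsenic animals 1 to 5) or distilled deionized water (control animals 1 to 5). No genetic modification is recorded for either group. The series text calls the compound arsenate and the sample protocols call it arsenite, so it is called arsenic here. RNA of the whole lung, 1 animal per array, was measured on Affymetrix Mouse430_2 arrays, which read each transcript with sets of short probes. The treatment field of control animal 4 names a control but holds no dose, and its group comes from its title. The first number in the titles is 20 for every arsenic animal and 4 for every control; its meaning is not given, and anything it marks cannot be told apart from the exposure.

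A motile cilium is a bundle of doublet microtubules around a central pair, bent by dynein motors that walk along neighbouring doublets. Radial spokes and the nexin link regulate those motors, and a set of proteins inside the doublets stiffens them. In the lung, motile cilia stand on the multiciliated cells of the conducting airways, where they sweep mucus upwards. FOXJ1, a forkhead transcription factor, and the RFX factors switch on the genes of this programme. Whole-lung RNA mixes airway with a much larger share of alveolar tissue, and in such a sample fewer ciliated cells and less RNA per ciliated cell cannot be told apart.

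Many of the members' promoters held a short sequence that played no part in choosing them. RefSeq promoters (GRCm38.p6, 250 bases before to 50 after the start) were found for 35 of the 41 genes, 38 promoters in all. They were searched on both strands for GTTGCC, a half-site bound by RFX factors. It was present in 19 of 38 member promoters (50.0%) and in 4111 of all 32851 promoters (12.5%). The promoters of other motile cilia genes had it in 52 of 116 cases (44.8%). Counted by gene, 18 of 35 members had it (51.4%), against 14.1% of all genes in the table. The longer RFX core GTTNCCATG, which overlaps the half-site where N is G, was in 4 of 38 member promoters (10.5%) and in 1.93% of all promoters. The forkhead core TGTTTAC was in 4 of 38 (10.5%) and in 3.65% of all. The 38 promoters include overlapping windows of Tekt2; counted once by position, there were 23 half-sites, of which 17 lay within 150 bases before a start. A match is a run of letters and not a binding site.

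The 5 promoters below show these matches, written 5′ to 3′ with the matched letters in capitals. Tekt1 and Dnali1 were chosen because they were among the 3 members that followed Foxj1 most closely, Mlf1 because it holds both a forkhead core and a half-site, and Dynlrb2 and Dnah6 because they were among the members with the most positive and most negative differences between the groups. Tekt1, chr11:72361833-72362132 on the minus strand, has half-sites 35 and 15 bases before the start; its other promoter in the table has none. Dnali1, chr4:125065608-125065907 on the minus strand, has the longer core 8 bases before the start. Mlf1, chr3:67373847-67374146 on the plus strand, has the forkhead core 116 and the half-site 105 bases before the start. Dynlrb2, chr8:116504765-116505064 on the plus strand, has a half-site 51 bases before the start. Dnah6, chr6:73221582-73221881 on the minus strand, holds none of these exact letters. The promoter of Dnah9, the other of the 3 members that followed Foxj1 most closely, is not printed and holds none of them either.
Tekt1: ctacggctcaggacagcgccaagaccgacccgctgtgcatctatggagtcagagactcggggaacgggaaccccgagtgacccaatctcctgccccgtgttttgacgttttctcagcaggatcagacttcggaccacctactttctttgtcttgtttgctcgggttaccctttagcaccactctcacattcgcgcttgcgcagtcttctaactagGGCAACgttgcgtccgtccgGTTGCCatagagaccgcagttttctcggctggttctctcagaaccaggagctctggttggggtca
Dnali1: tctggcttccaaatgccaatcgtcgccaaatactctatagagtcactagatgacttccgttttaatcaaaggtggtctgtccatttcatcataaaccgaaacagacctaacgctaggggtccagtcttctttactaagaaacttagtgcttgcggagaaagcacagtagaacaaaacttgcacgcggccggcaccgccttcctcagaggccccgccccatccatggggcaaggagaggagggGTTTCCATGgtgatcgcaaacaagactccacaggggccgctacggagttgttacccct
Mlf1: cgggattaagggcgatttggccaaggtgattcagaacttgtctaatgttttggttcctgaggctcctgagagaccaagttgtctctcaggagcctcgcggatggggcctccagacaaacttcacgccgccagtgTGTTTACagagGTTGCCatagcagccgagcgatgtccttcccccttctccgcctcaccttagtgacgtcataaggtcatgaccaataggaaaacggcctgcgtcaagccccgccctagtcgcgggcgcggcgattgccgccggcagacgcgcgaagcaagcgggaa
Dynlrb2: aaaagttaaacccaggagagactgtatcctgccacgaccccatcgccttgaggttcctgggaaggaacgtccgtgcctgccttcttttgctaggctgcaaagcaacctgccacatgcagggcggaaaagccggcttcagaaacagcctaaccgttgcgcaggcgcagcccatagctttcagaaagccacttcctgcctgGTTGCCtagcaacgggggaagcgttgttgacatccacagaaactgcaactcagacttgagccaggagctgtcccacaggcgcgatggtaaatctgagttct
Dnah6: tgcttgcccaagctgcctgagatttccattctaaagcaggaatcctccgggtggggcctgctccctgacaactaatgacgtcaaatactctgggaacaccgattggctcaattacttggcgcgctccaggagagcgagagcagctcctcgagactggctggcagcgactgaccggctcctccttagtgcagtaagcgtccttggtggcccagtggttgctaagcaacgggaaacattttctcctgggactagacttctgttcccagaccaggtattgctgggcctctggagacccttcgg

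The arrays were alike as a whole: pairwise correlations over all 45101 probe sets were 0.990 to 0.997, and array medians were 4.11 to 4.26 (log2). The kidney list (10 of 24 genes tested) ranged from -2.31 to 0.86 in controls and from -0.19 to 1.93 in arsenic animals, with a mean difference of 1.26, although the tissue is labelled lung. Markers of alveolar type 2 cells, 11 of 12 tested, were bright on every array (Sftpc at 15.95 to 16.18) except Nkx2-1, at 5.68 to 6.82. Of the 8 neuroendocrine markers none passed the filter.

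No motile cilia gene passed the test between arsenic and control lungs. In the limma fit over all genes, 0 of 35 tested members had an adjusted p under 0.05 (Benjamini-Hochberg), against 54 of 11333 genes (0.476%), and 1 of 35 had an unadjusted p under 0.05, against 15.7%. In 0 of 35 did the animals of the groups separate without overlap, against 3.63% of all genes tested. The adjusted p of the members ran from 0.286 to 0.999. The median difference of the members, arsenic minus control, was -0.14 on the log2 scale, with 29 below 0 and 6 above, beside a median of 0.06 over all genes and 63.2% of all genes above 0. That sign rested on arsenic animal 5. Without it the members' median was 0.12, with 25 above 0 and 10 below. The median was -0.03 without control animal 4 or control animal 5, -0.26 without control animal 2 and -0.30 without arsenic animal 3. Without both arsenic animal 5 and control animal 2 it was -0.0087, with 16 above and 19 below (an alternative chosen after the data were seen). The median was -0.36 with the kidney level as a covariate. Again 0 members were called in each of these fits.

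The size of change that these arrays could miss follows from the spread. The median standard error of a member's difference was 0.32, against 0.12 for all genes tested. The 95% confidence interval lay wholly between -1 and 1 in 28 of the 35 members and included 0 in 34. The intervals do not show that the groups were alike: for Rsph4a, the widest, the interval was -1.58 to 0.37.

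**Figure D1:**
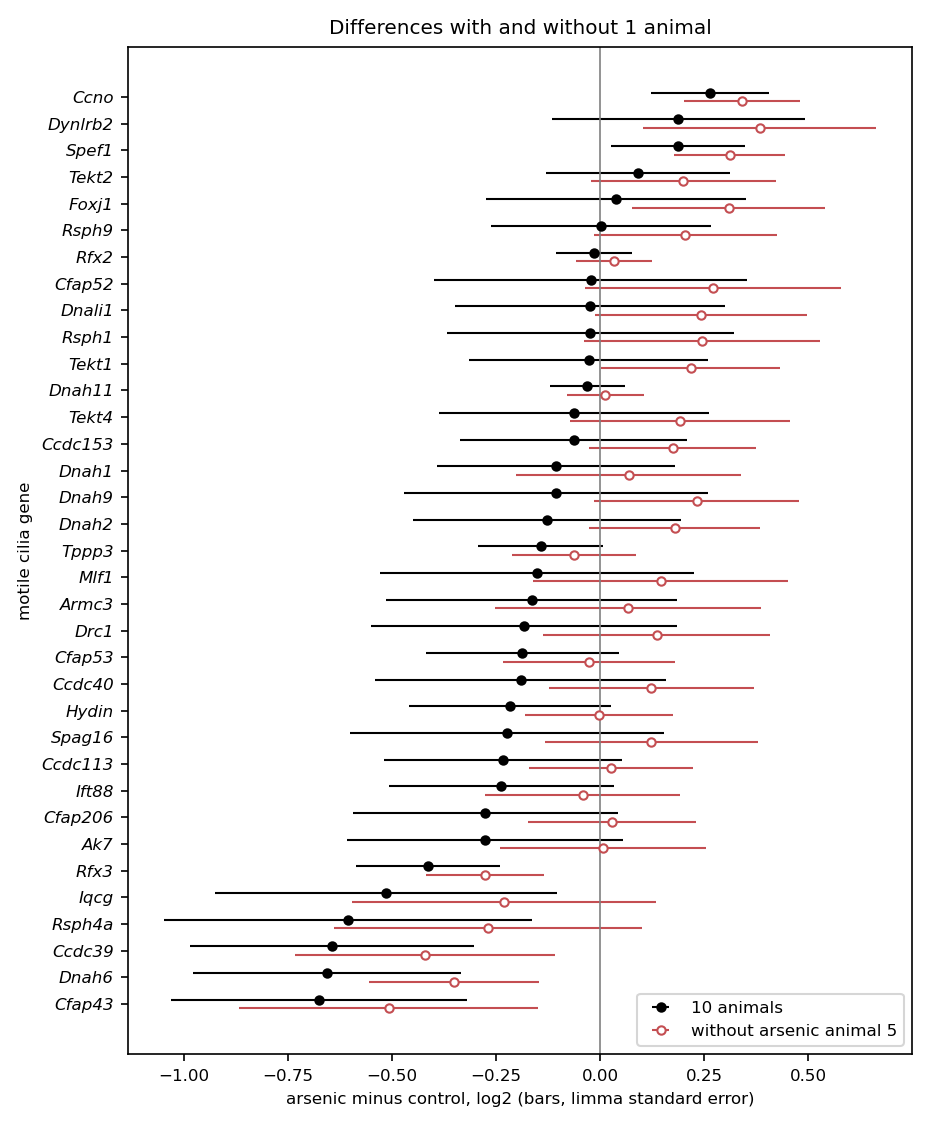
Difference of arsenic minus control (log2, n = 5 per group) for each of the 35 tested motile cilia genes, ordered by size; filled points are the differences with all 10 animals and open points those without arsenic animal 5, and bars are limma standard errors. With all animals 29 of 35 points lie below 0, and the median moves from -0.14 to 0.12 without that animal.

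What varied was the animal. The members' level in an animal, the mean over the 35 genes of its deviation from each gene's mean, was 0.03, -0.43, -0.13, 0.52 and 0.43 in control animals 1 to 5. In arsenic animals 1 to 5 it was 0.04, 0.09, 0.48, -0.05 and -0.99. Arsenic animal 5 stood lowest, control animal 2 next, and control animals 4 and 5 and arsenic animal 3 highest, so both ends of the range held animals of both groups. The group levels were 0.08 ± 0.39 in controls and -0.08 ± 0.55 in arsenic animals (SD, n = 5 each). Arsenic animal 5 had the lowest value in 32 of the 35 genes, and control animal 2 was among the 2 lowest in 22. The highest animal was control animal 4 in 12 genes, control animal 5 in 11 and arsenic animal 3 in 10.

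**Figure D2:**
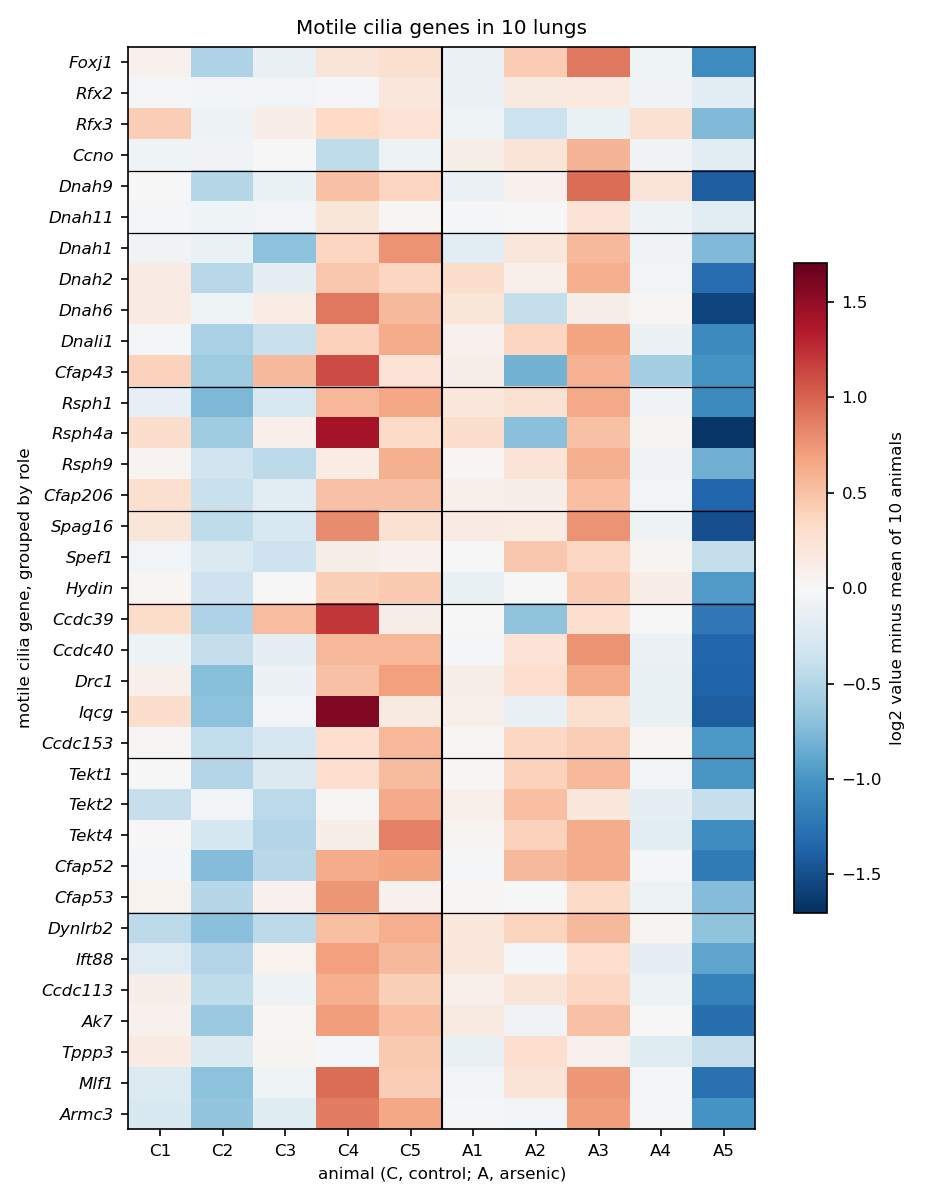
Deviation of each animal from the gene's mean over the 10 animals (log2, colour scale) for the 35 tested motile cilia genes, grouped by role, with control animals 1 to 5 and arsenic animals 1 to 5 in columns. The column of arsenic animal 5 is lowest in 32 of 35 genes, and control animals 4 and 5 and arsenic animal 3 are among the 3 highest in 26, 28 and 31 genes; Ccno is lowest in control animal 4.

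The spread of single members was wide for this table. The distance from the lowest to the highest animal had a median of 1.75 over the members, against 0.64 over all genes tested. It was over 1 in 31 of 35 members, against 21.8% of all genes, and over 2 in 10 members. Rsph4a had the widest range, 3.06, and Rfx2 the narrowest, 0.39. The correlation between pairs of members across the 10 animals had a median of 0.81 over 595 pairs, of which 587 were above 0. Without arsenic animal 5 the median was 0.70, and with the group means subtracted it was 0.84; the pairs share animals and arrays, so these are descriptions.

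Among the regulators, Foxj1 is the forkhead factor that is needed for motile cilia to form. On chromosome 11, it was measured at 9.27, 8.67, 9.07, 9.42 and 9.47 in control animals 1 to 5 and at 9.10, 9.64, 10.10, 9.13 and 8.13 in arsenic animals 1 to 5 (log2). The arsenic animals held both the highest and the lowest value and enclosed all controls. The difference was 0.04 (SE 0.31, adjusted p = 0.959, limma). Without arsenic animal 3 it was -0.18 and without arsenic animal 5 it was 0.31.

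Rfx3, an RFX factor that acts with Foxj1, had the smallest p among the members. It was at 6.24, 5.73, 5.93, 6.16 and 6.07 in controls and at 5.74, 5.46, 5.71, 6.08 and 5.07 in arsenic animals. The groups overlapped: arsenic animal 4 lay above 3 of the controls, and control animal 2 lay within the arsenic range. The difference was -0.41 (SE 0.17, unadjusted p = 0.036, adjusted p = 0.286, limma), and it lay between -0.53 and -0.28 as each animal was left out in turn.

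Ccno, cyclin O, which acts in making the many basal bodies of a multiciliated cell, had the most positive difference. It was at 6.37, 6.38, 6.44, 6.02 and 6.36 in controls and at 6.55, 6.66, 7.02, 6.38 and 6.27 in arsenic animals. Arsenic animals 1 to 3 lay above every control, and arsenic animal 5 lay below all controls but animal 4. The difference was 0.26 (SE 0.14, adjusted p = 0.384, limma) and 0.15 without arsenic animal 3. Control animal 4, high for most members, was the lowest animal for Ccno. Rfx2, the second RFX factor, differed by -0.02 within a total range of 0.39.

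Outer dynein arms supply most of the power of the beat. Of their heavy chains, Dnah9 differed by -0.11 and Dnah11 by -0.03, and neither was called. Their spreads were unlike: Dnah9 spanned 2.35 between the lowest and the highest animal and Dnah11 only 0.41. Dnah5, the third heavy chain, was below the filter, at 4.57, 3.95, 4.11, 5.10 and 4.06 in controls and at 4.01, 3.65, 4.76, 3.93 and 2.98 in arsenic animals. It was not tested, and its lowest and highest animals, arsenic animal 5 and control animal 4, were those of many tested members.

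Inner dynein arms shape the bend. All 5 tested genes of this group had differences below 0, with a median of -0.13, and 0 were called. Dnah6, an inner arm heavy chain on chromosome 6, was at 8.24, 8.02, 8.22, 8.99 and 8.64 in controls and at 8.30, 7.68, 8.20, 8.12 and 6.54 in arsenic animals. Arsenic animal 5 was lower than any other animal by over 1, and the other arsenic animals, at 7.68 to 8.30, lay below control animals 4 and 5. The difference was -0.66 (SE 0.32, adjusted p = 0.352, limma) and -0.35 without arsenic animal 5.

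Cfap43, a protein of the tether that holds an inner arm dynein, had the most negative difference. It was at 7.00, 6.00, 7.17, 7.71 and 6.85 in controls and at 6.71, 5.81, 7.21, 6.03 and 5.60 in arsenic animals. The lower values were those of control animal 2 and arsenic animals 2, 4 and 5, so both groups had low animals. The difference was -0.68 (SE 0.36, adjusted p = 0.378, limma). Its other kept probe set gave -0.03 and correlated with the first at only 0.58, so the probe sets of Cfap43 disagree. In Armc3, Cfap52 and Dnali1, the other members with a second kept probe set, the probe sets correlated at 0.971 or more.

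The remaining inner arm genes differed little. Dnah1 and Dnah2, both heavy chains, differed by -0.11 and -0.13, and Dnali1, a light intermediate chain, by -0.02. Each of these differences was above 0 without arsenic animal 5, at 0.07, 0.18 and 0.24.

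Radial spokes reach from the doublets to the central pair. Rsph4a, a spoke head protein, was at 6.86, 5.96, 6.66, 7.97 and 6.88 in controls and at 6.87, 5.85, 7.06, 6.61 and 4.92 in arsenic animals. Control animal 4 stood above and arsenic animal 5 below all others, and the remaining animals of the groups lay among each other. The difference was -0.61 (SE 0.44, adjusted p = 0.504, limma) and -0.27 without arsenic animal 5. Rsph1 and Rsph9, which are also spoke head proteins, differed by -0.02 and 0.00093, and Cfap206, a spoke base protein, by -0.28.

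The central apparatus steers the beat through the spokes. Spef1, which bundles central pair microtubules, was at 8.69, 8.50, 8.39, 8.84 and 8.82 in controls and at 8.75, 9.20, 9.10, 8.79 and 8.34 in arsenic animals. Arsenic animals 2 and 3 lay above every control and arsenic animal 5 below every control. The difference was 0.19 (SE 0.16, adjusted p = 0.568, limma), 0.096 without arsenic animal 2 and 0.31 without arsenic animal 5. Spag16 and Hydin, central apparatus proteins, each differed by -0.22, and Hydin was at -0.0030 without arsenic animal 5. Spag17 (2.74 to 2.96) and Spef2 (3.28 to 3.53) stayed below the filter on all arrays and were not tested.

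The ruler and the nexin link set the spacing of the arms and spokes and join neighbouring doublets. All 5 tested genes had differences below 0, with a median of -0.19, and 0 were called. Ccdc39, which forms the ruler with Ccdc40, was at 7.62, 6.79, 7.83, 8.51 and 7.41 in controls and at 7.31, 6.63, 7.59, 7.32 and 6.09 in arsenic animals. Control animal 4 was highest and arsenic animal 5 lowest, and control animal 2 lay below 3 of the arsenic animals. The difference was -0.64 (SE 0.34, adjusted p = 0.381, limma) and -0.42 without arsenic animal 5. Its partner Ccdc40 differed by -0.19. The nexin link genes Drc1, Iqcg and Ccdc153 differed by -0.18, -0.51 and -0.06. For Iqcg the difference was -0.19 without control animal 4 and -0.75 without control animal 2. Iqcg was dim, at 2.82 to 5.79 around the filter level of 4.20.

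Tektins and other proteins of the doublet lumen line the inside of the microtubules. Tekt2 was at 7.37, 7.71, 7.30, 7.78 and 8.41 in controls and at 7.84, 8.27, 7.93, 7.61 and 7.37 in arsenic animals. It was 1 of the 3 members whose lowest animal was not arsenic animal 5; that was control animal 3, and the highest was control animal 5. The difference was 0.09 (SE 0.22, adjusted p = 0.858, limma). Tekt1 and Tekt4 differed by -0.03 and -0.06, Cfap52 by -0.02 and Cfap53 by -0.19.

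Among the transport and other genes, Dynlrb2, a dynein light chain of the roadblock family, had the second most positive difference of all members. It was at 11.64, 11.38, 11.65, 12.61 and 12.71 in controls and at 12.27, 12.47, 12.64, 12.14 and 11.41 in arsenic animals. Controls split into 3 low and 2 high animals, and 4 arsenic animals lay above the low controls while arsenic animal 5 lay among them. The difference was 0.19 (SE 0.30, adjusted p = 0.770, limma), 0.035 without control animal 2 and 0.38 without arsenic animal 5. Ift88, a subunit of the train that carries parts into the cilium, differed by -0.24, and by -0.042 without arsenic animal 5. Ccdc113 differed by -0.23, Ak7, an adenylate kinase, by -0.28, Tppp3, a tubulin-binding protein, by -0.14, Mlf1 by -0.15 and Armc3 by -0.16.

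**Figure D3:**
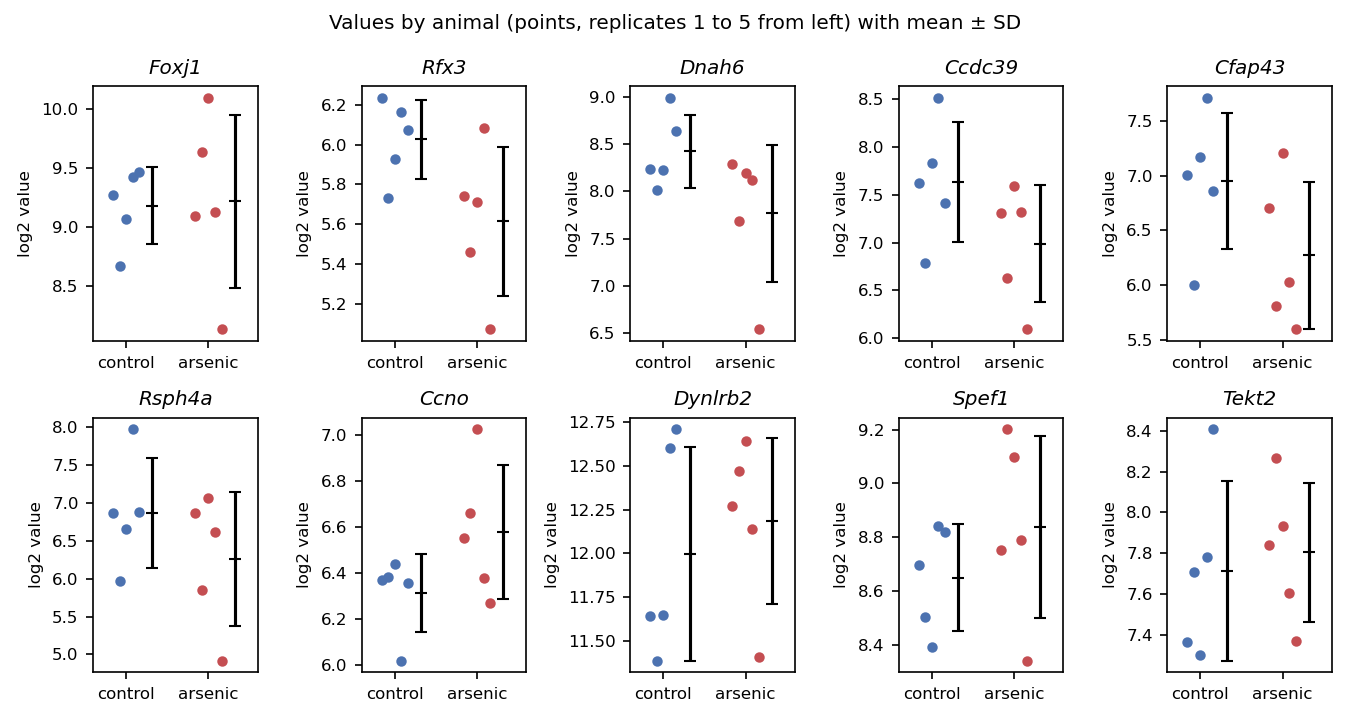
Level (log2) of Foxj1, of Rfx3 and of the 8 members with the most negative and most positive differences; points are control (blue) and arsenic (red) animals 1 to 5 from left, and bars are the mean ± SD (n = 5 each), with a scale of its own in each panel. The groups overlap in every panel, and arsenic animal 5 is the lowest point except for Ccno and Dynlrb2 and for Tekt2.

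Foxj1 varied with most of the other members across animals. Of the 34 other tested members, 27 correlated with Foxj1 across the 10 animals at an adjusted p under 0.05 (permutation test with 100000 resamples, two-sided, Benjamini-Hochberg over the 34 pairs). The closest member was Tekt1 (r = 0.956, rho = 0.952, permutation p = 2e-05, adjusted p = 0.00068), followed by Dnah9 (r = 0.943) and Dnali1 (r = 0.941). The loosest were Rfx3 (r = 0.430, rho = 0.139, permutation p = 0.213), Ccdc39 (r = 0.546) and Ccno (r = 0.553), none of which passed. With group means subtracted, 31 of 34 passed. There the values were permuted across all 10 animals as if no means had been subtracted, which makes passing easier. An r over 0.8 with Foxj1 was reached by 22 of the 34 members (64.7%), against 3.69% of all 11332 other genes tested, among which Tekt1 ranked 11. It was also reached by 74.3% of the other motile cilia genes tested, by 8 of 14 genes of the club list (airway secretory cells) and by 8 of 8 cardiac muscle genes. In the permutation test, corrected within each list, 70 of 74 other motile cilia genes, 11 of 14 club and 8 of 8 cardiac genes passed. In the same test 2 of 9 smooth muscle genes, 0 of 11 type 2, 0 of 10 type 1 and 0 of 10 kidney genes passed. The share of all genes passing this test was not computed, so the counts of members passing cannot be set against it. Since most genes of the other motile cilia, club and cardiac lists also passed, passing is not particular to the members.

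The relation was also computed without the animals at the ends. Leaving these out narrows the range of Foxj1, which tends to lower r, and fewer animals make it harder to pass. The step therefore cannot show what the relation rests on. Without arsenic animals 3 and 5, the 2 farthest from the Foxj1 median, 8 of 34 pairs passed by an exact permutation test over the remaining 8 animals, and the median r was 0.72 instead of 0.86. Tekt1 kept r = 0.935 and Cfap52 had r = 0.925 there, while Rfx3 had 0.037, Ccno 0.010 and Dnah6 0.18. With 1 animal left out in turn, between 21 and 31 pairs passed, the fewest without arsenic animal 5.

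**Figure D4:**
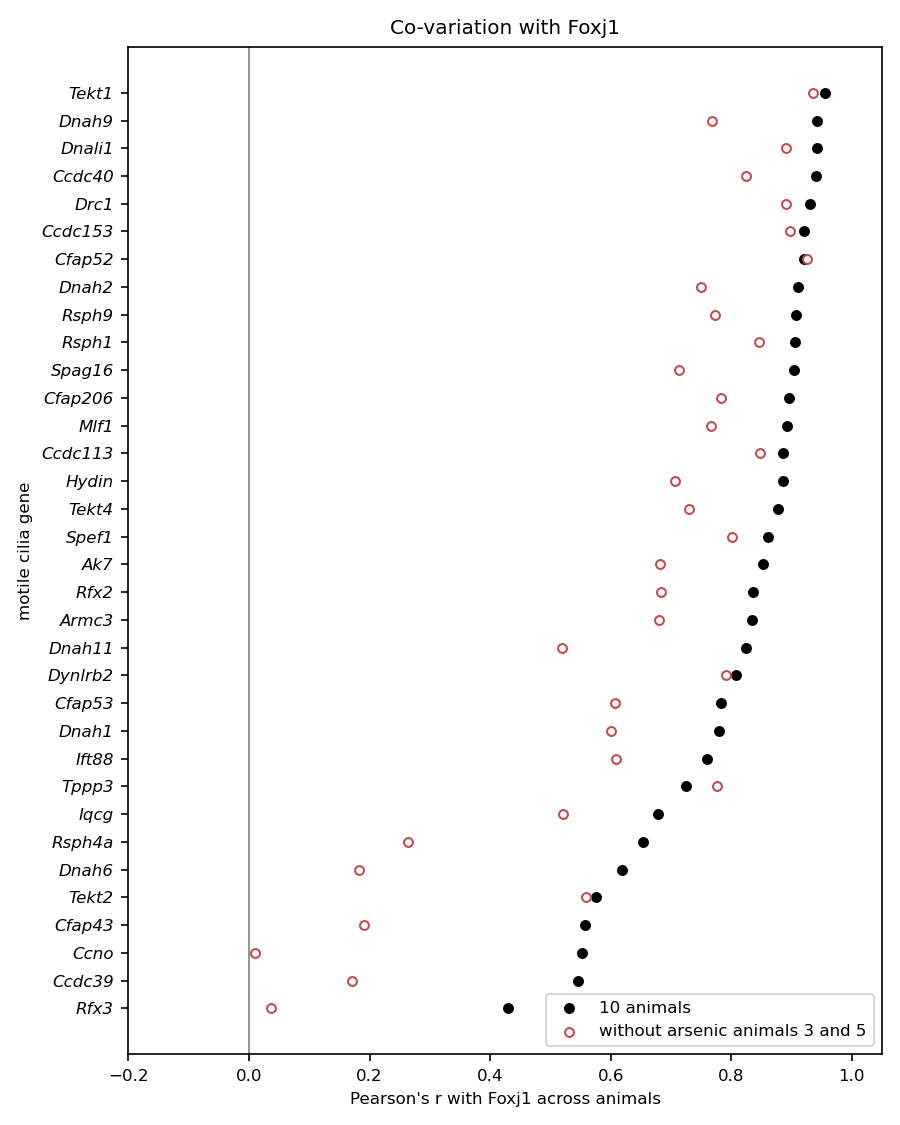
Pearson r of each of the 34 other members with Foxj1 over all 10 animals and over the 8 animals without arsenic animals 3 and 5; each row is a gene, filled points are all animals and open points the 8. Tekt1 stays at 0.935, whereas Rfx3, Ccno and Dnah6 drop to 0.037, 0.010 and 0.18.

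No other gene of the pathway was called either. Of 149 other motile cilia genes listed, 74 were tested, 0 were called (limma), 1 had an unadjusted p under 0.05, and 33 differences were above 0 and 41 below, with a median of -0.0065. Cfap36, with the smallest p of these, differed by -0.32 (adjusted p = 0.274, limma), Spata17 by -0.40, Cfap69 by -0.56, Mns1 by -0.46, Dnah7a by 0.51 and Cfap20 by -0.15. Leaving out 1 animal moved several of these: Cfap69 was at -0.24 without arsenic animal 5, Mns1 at -0.25 and Spata17 at -0.25 without control animal 4, Cfap20 at -0.075 without control animal 5, and Dnah7a at 0.30 without arsenic animal 3. Their median r with Foxj1 was 0.86, as for the members. Of 37 genes of intraflagellar transport and its dynein, which primary cilia also use, 28 were tested and 0 were called. Only 1, Kif3a, had an unadjusted p under 0.05. Kif3a, a kinesin subunit, differed by -0.52 (adjusted p = 0.214, limma), but by -0.27 with the mean of its kept probe sets. Ift74 differed by -0.72 and Kifap3 by -0.21, the last at -0.13 without control animal 4. The 28 genes had a median r with Foxj1 of 0.72. Over all genes tested the median r with Foxj1 was -0.04.

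Markers of other cells moved with the members across animals. The club list, secretory cells of the airway epithelium (14 of 15 tested), had a median r with Foxj1 of 0.84, and its level ranged from -1.99 to 0.84 in controls and from -1.98 to 1.07 in arsenic animals. Control animal 2 and arsenic animal 5 were the 2 lowest in 11 of these 14 genes, as they were in 22 of the 35 members. Bpifa1, a secreted airway protein, was at 4.10 in control animal 2 and 8.22 in arsenic animal 5, against 13.32 to 15.85 in the other 8 animals. Reg3g was at 1.75 and 3.00 in these animals and at 8.78 to 13.09 in the others. A few genes set the range of this list: Bpifa1, Reg3g, Muc5b and Scgb3a1 each spanned over 6 between the lowest and the highest animal, and 5 of the 14 genes spanned 1 or less. Among these 5, Scgb1a1, the defining club cell product, was at 16.17 to 16.32 on all arrays, near the top of the scale.

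Of the cardiac muscle genes (8 of 10 tested), all 8 had control animal 2 and arsenic animal 5 as their 2 lowest animals, and their level ranged from -1.55 to 1.24 in controls and from -2.22 to 1.45 in arsenic animals. Smooth muscle genes (9 of 10 tested) ranged from -0.28 to 0.11 and from -0.31 to 0.33. The type 2 list ranged from -0.06 to 0.08 and from -0.18 to 0.13, and the type 1 list (10 of 10) from -0.05 to 0.13 and from -0.13 to 0.04; their median r with Foxj1 was -0.34 and -0.32. In the type 2 list 7 of 11 genes stayed above 14 on every array, in a table whose highest value is 16.32, which limits what their narrow range can show; the dimmest, Nkx2-1, spanned 1.14. Of 8 basal cell markers 2 were tested, and their level ranged from -0.45 to 0.76 in controls and from -0.97 to 1.38 in arsenic animals. The difference between the 3′ and 5′ control probe sets of Actb was lowest in arsenic animal 5 (0.502). It was highest in arsenic animal 3 (0.697) and arsenic animal 4 (0.696), whose members' levels were 0.48 and -0.05. For Gapdh it was lowest in arsenic animal 5 (-0.57) and highest in arsenic animal 4 (-0.42). The part of these markers and of RNA quality in the members' levels was not tested.

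**Figure D5:**
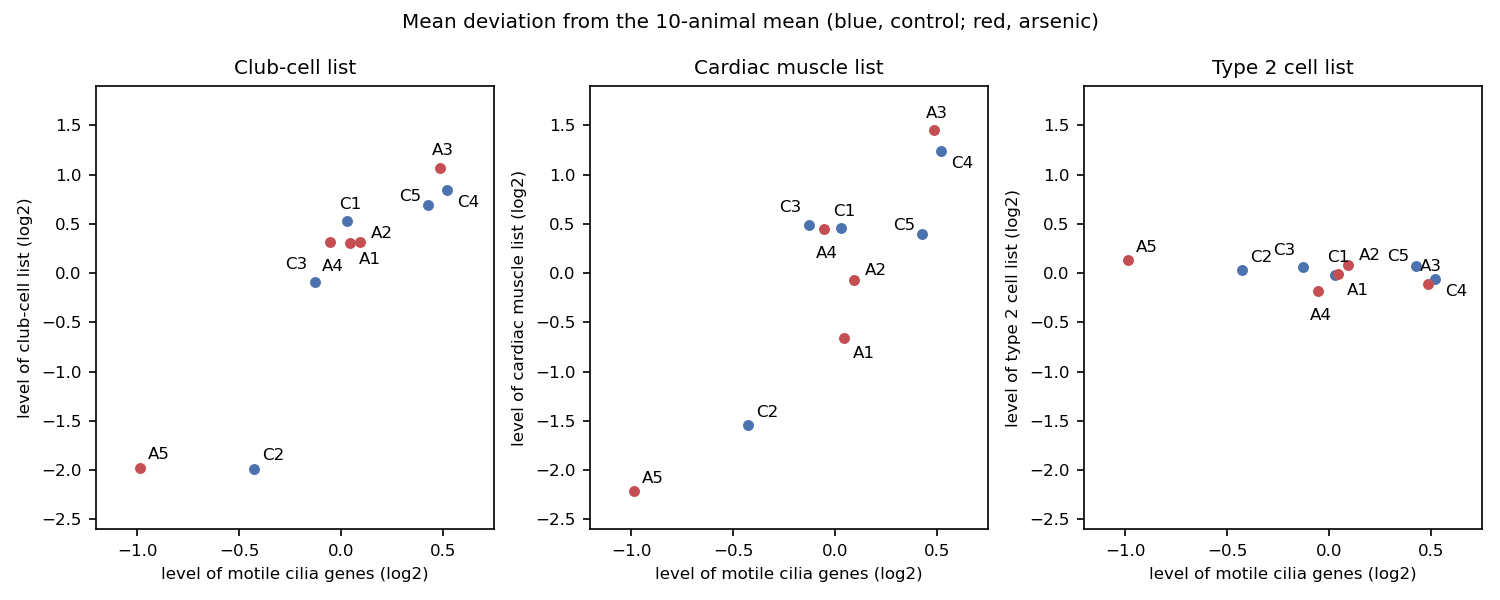
Level of the club-cell, cardiac muscle and type 2 cell lists against the level of the motile cilia genes, each as the mean deviation from the 10-animal mean (log2); each point is an animal, labelled C for control and A for arsenic. Control animal 2 and arsenic animal 5 are lowest for club and cardiac genes, and the type 2 list, mostly of genes near the top of the scale, lies between -0.18 and 0.13.

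A pair of fits chosen after the data were seen compared the groups with the level of a list as a covariate. With the mean of the other members as a covariate, 0 of 35 members were called and 5 had an unadjusted p under 0.05, a share no larger than the 16.5% of all genes in that fit. These were Dnah6 at -0.49 (adjusted p = 0.196, limma), Rfx3 at -0.35 (0.268), Dynlrb2 at 0.38 (0.231), Spef1 at 0.28 (0.232) and Rsph1 at 0.20 (0.294). With the club level as a covariate, 0 of 35 were called and 7 had an unadjusted p under 0.05, near the 17.8% of all genes. Foxj1 differed by 0.23 (adjusted p = 0.398) with the members' level as the covariate.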

How the data were processed

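Each array measured RNA of 1 mouse lung, extracted with Trizol and cleaned on Qiagen columns, per the labels' protocols. The values deposited are log2, for 45101 probe sets on 10 arrays, and were made by the authors with GCRMA per the submitters' processing notes; its version is not given in the sources used here. GCRMA corrects background by probe sequence, normalizes between arrays and summarises probes, and it compresses dim values. Scanner files were not used here. That the values are log2 was read from their range, 0.619 to 16.3. Precision is limited by how few arrays there are.

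Of the probe sets, 34958 had 1 gene symbol, 932 several and 9211 none. Probe sets above the table's median, 4.20, on at least 5 arrays were kept (22552), and a gene with several kept sets took the brightest on average over the 10 arrays. Groups, taken from the titles, were compared with limma 3.58.1 in R 4.3.3 without covariates; an adjusted p under 0.05 (Benjamini-Hochberg over 11333 genes) was a call. Each animal has a number of its own in the labels. On simulated data with 5 animals a group, the fit called 33 of 67 genes changed by 0.5 on the log2 scale, 59 of 67 changed by 1 and 5 of 11133 unchanged. These shares hold for the simulated spread and cannot be read as those of the members. The members' median standard error was 0.32, against 0.12 for all genes tested.

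Members and lists were chosen with earlier results of these data known. Values per animal are given for Foxj1, for Rfx3 as the smallest p (chosen after its value was seen), for the 4 most negative and 4 most positive differences, and for Dnah5, which was not tested. From the other cilia lists, the 6 and 3 genes with the smallest p are named, and from the Foxj1 correlations the 3 highest and 3 lowest. Levels of different genes were not compared. Alternatives changed the filter, probe set choice, normalization, prior, weights, block, covariates, threshold and animals.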

Additional observations from a re-analysis of the deposited data

Results flagged for a closer look

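In groups of 5 animals, the lowest or highest animal was compared with its nearest neighbour by Dixon's criterion in 124 groups of values, and 10 stood apart; chance marks about 1 in 20 such groups. Arsenic animal 5 stood below the other arsenic animals for Iqcg at 2.82 (nearest 4.09), for Ccdc153 at 10.50 (nearest 11.51), for Cfap69 at 5.31 (nearest 6.77) and for Ift74 at 5.63 (nearest 6.71). It was also apart for the level of the club list, at -1.98 (nearest 0.30). Among the controls, animal 5 stood above the others for Rfx2 at 7.20 (nearest 6.98), and animal 4 below them for Ccno at 6.02 (nearest 6.36). Control animal 2 was apart for the smooth muscle level at -0.28 (nearest 0.0059). For the type 1 level, control animal 3 was apart at 0.13 (nearest -3.2e-05) and arsenic animal 3 at -0.13 (nearest 0.012).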

How the results depend on the processing

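In every alternative run, limma called 0 members and 0 other cilia genes. The fits with the members' or club level as a covariate, the fit without control animal 2 and arsenic animal 5, and the Foxj1 correlations with 1 animal left out were chosen after seeing the data. Foxj1 has 1 probe set under the rule, so no other could be tried. The number of calls over all genes, 54, did: 19 without a filter, 11 without control animal 2 and arsenic animal 4, 6 with the kidney level as a covariate, 108 at an adjusted p of 0.10, 86 with the club level as a covariate, 1 without control animal 2 and arsenic animal 5, and 9 to 41 with 1 animal left out. With the replicate number as a block it was 5. The members' median difference, -0.14, cannot change in that fit, because each number has 1 animal of each group. Same-numbered animals correlated at -0.33 to 0.25 with group means subtracted. Whether they share more than a number cannot be told from these values. Of 591 alternatives for single genes, 539 kept the sign and 52 turned it, and none passed the threshold. Changes of the filter, prior or block left a gene's difference as it was and could not turn a sign. The count of kept signs therefore overstates how steady they were. Of 440 alternatives that left out 1 animal, 47 turned the sign. The cause was not tested. With quantile normalization the turned values were Rfx2 0.035, Dnah11 0.0040 and Rsph9 -0.019. With arrays centred on their median they were Rfx2 0.048, Dnah11 0.032, Dnali1 0.039, Rsph1 0.039, Tekt1 0.036 and Cfap52 0.041. With array weights they were Dnah9 0.026, Dnah11 0.0046, Dnah1 0.0059, Dnali1 0.088, Rsph1 0.14, Ccdc153 0.016, Tekt1 0.052, Tekt4 0.037, Cfap52 0.088, Mlf1 0.038 and Armc3 0.051. Without control animal 2 and arsenic animal 4 they were Foxj1 -0.068 and Rsph9 -0.068, and with the kidney level as a covariate Foxj1 -0.055, Rsph9 -0.021 and Dynlrb2 -0.059. With the members' level as a covariate they were Rfx2 0.019, Dnah9 0.12, Dnah11 0.0090, Dnah1 0.044, Dnah2 0.075, Dnali1 0.18, Rsph1 0.20, Spag16 0.010, Ccdc40 0.029, Drc1 0.050, Ccdc153 0.10, Tekt1 0.15, Tekt4 0.12, Cfap52 0.22, Mlf1 0.084 and Armc3 0.050. That covariate takes out the difference that the members share, so these turns are partly built into the fit. With the club level the turned value was Rsph9 -0.0018. Without control animal 2 and arsenic animal 5 the turned values were Rfx2 0.019, Dnah9 0.096, Dnah1 0.026, Dnah2 0.045, Dnali1 0.10, Rsph1 0.051, Ccdc153 0.060, Tekt1 0.089, Tekt4 0.11 and Cfap52 0.082. With 1 animal left out, the differences that crossed 0 ranged as follows: Foxj1 -0.18 to 0.31, Rfx2 -0.057 to 0.033, Dnah9 -0.36 to 0.23, Dnah11 -0.091 to 0.016, Dnah1 -0.29 to 0.072, Dnah2 -0.30 to 0.18, Dnali1 -0.20 to 0.24, Rsph1 -0.22 to 0.24, Rsph9 -0.15 to 0.20, Cfap206 -0.44 to 0.028, Spag16 -0.44 to 0.12, Ccdc40 -0.41 to 0.12, Drc1 -0.39 to 0.14, Ccdc153 -0.18 to 0.17, Tekt1 -0.17 to 0.22, Tekt2 -0.026 to 0.26, Tekt4 -0.23 to 0.19, Cfap52 -0.21 to 0.27, Ccdc113 -0.37 to 0.025, Ak7 -0.47 to 0.0072, Mlf1 -0.35 to 0.15, Armc3 -0.36 to 0.066. Some differences moved by over 1.5 times with the sign kept. Besides those given above with their genes, these were Cfap53 -0.33 to -0.024 and Tppp3 -0.23 to -0.050. Without the 2 animals farthest from the Foxj1 median, 8 pairs passed instead of 27, over 8 animals instead of 10. The longer RFX core was in 10.5% of member promoters, against 50.0% for the half-site. Dim members limit the depth: Dnah5, Spag17 and Spef2 were not tested, and GCRMA understates differences of dim genes. Of the tested members, Iqcg (2.82 to 5.79) and Cfap53 (3.56 to 5.04) lay near the filter level.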
